A study of Mus musculus with 9 samples.

Results

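The genes described here encode signals that stromal cells of the knee joint send to macrophages, osteoclasts and other cells of haematopoietic origin. They are 5 of the 54534 genes listed over the series, chosen by name and not by their values: *Csf1*, *Il34*, *Tnfsf11*, *Tnfrsf11b* and *Kitl*. Cells came from *Gdf5-Cre;Tom;Pdgfrα-H2BGFP* mice aged 11 to 12 weeks, in which tdTomato (Tom) marks the progeny of cells that once expressed *Gdf5* in the joint-forming interzone, and a nuclear GFP is driven by the *Pdgfrα* promoter, active across fibroblasts. Live Tom+ cells (*Gdf5*-lineage) and Tom-GFP+ cells (other *Pdgfrα*-expressing cells) were sorted and read as separate single-cell libraries. There were 2 Tom+ and 1 Tom-GFP+ libraries from uninjured knees (steady state) and 4 Tom+ and 2 Tom-GFP+ libraries taken 6 days after surgery in which the knee was opened, the patella dislocated and the trochlear cartilage scratched (injured). All groups carried the same alleles, each library came from 1 mouse, and no sham-operated group was analysed, so the effects of opening the joint and of the cartilage scratch cannot be told apart. The study states that Tom-GFP+ libraries came from mice matched to Tom+ mice without saying which, so that libraries of the 2 lineages may share a mouse.

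As background, CSF1 and IL-34 are the ligands of CSF1R, the receptor that macrophages and their precursors need to survive and divide, and CSF1 also keeps osteoclast precursors alive. RANKL, encoded by *Tnfsf11*, binds RANK on those precursors and drives them to become osteoclasts, the cells that resorb bone, while osteoprotegerin (OPG), encoded by *Tnfrsf11b*, is a secreted decoy receptor that captures RANKL. KIT ligand, encoded by *Kitl*, acts on mast cells, melanocytes and haematopoietic progenitors through KIT. In synovium, macrophages lie among and beneath the fibroblasts of the lining, and RANKL from fibroblasts is known for its part in the erosion of bone in arthritis.

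On the mouse assembly GRCm38, *Csf1* (ENSMUSG00000014599) lies at chr3:107741048-107760469 on the minus strand and *Il34* (ENSMUSG00000031750) at chr8:110741829-110805924 on the minus strand. *Tnfsf11* (ENSMUSG00000022015) lies at chr14:78277445-78308043 and *Tnfrsf11b* (ENSMUSG00000063727) at chr15:54250619-54278484, both on the minus strand. *Kitl* (ENSMUSG00000019966) lies at chr10:100015630-100100416 on the plus strand. The libraries count molecules from the 5′ end of transcripts, so each count belongs to a whole gene and not to an isoform.

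The libraries held 2866464 to 15033902 unique molecular identifiers (UMIs, one per captured RNA molecule), and 277 to 826 cells per library were kept, 4788 of 5161 barcodes in all. Kept cells were deeper after injury, with library medians of 12220 to 18570 UMIs against 8050 to 8647 in the steady state, so shares of cells with a UMI are given after every cell was thinned to 5000 UMIs (223 of 1285 steady-state and 237 of 3503 injured cells were shallower and were left out of those shares). The second injured Tom-GFP+ library stood apart, with 277 of its 424 barcodes kept and a 90th percentile of 82.3% mitochondrial UMIs over its barcodes. Libraries shared 14 barcodes, at most 2 for any pair. The gene lists came in an older format for the 3 steady-state libraries and the first injured Tom+ library and in a newer one for the other 5, so that, apart from that library, the format cannot be told apart from injury.

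Cells were classed by marker genes among which none of the 5 genes was used. The largest class was sublining fibroblasts, with a UMI of *Thy1* or *Cd34* and no lineage or lining gate met (156 to 350 cells per library). Lining fibroblasts had a UMI of *Clic5*, high *Prg4* and no *Thy1* (17 to 184 cells in the 8 libraries with at least 10). Smaller classes were *Prg4*+ *Clic5*- cells, tenocyte-lineage-like (11 to 128 cells), osteoblast-lineage-like (19 to 47 cells in 4 libraries), chondrocyte-lineage-like (10 to 16 cells in 3 libraries) and mural-like cells (39 and 23 cells in 2 injured Tom+ libraries). Levels are counts per 1000000 UMIs (CPM): a gene's UMIs in all cells that a library holds of the class, divided by every UMI of the same cells. Here n counts libraries. Because a class is summed, fewer cells that express a gene and less RNA per cell cannot be told apart from the CPM alone. Wherever cells were thinned, they were classed again on the thinned counts. A cell that lost UMIs of a marker could then change class, so the classes hold partly other cells.

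Over the kept cells *Csf1* was detected most broadly, with 5248 UMIs in 2468 cells. *Il34* had 1178 UMIs in 689 cells, *Kitl* 1033 in 562, *Tnfsf11* 1103 in 471 and *Tnfrsf11b* 713 in 276. A UMI of both *Tnfsf11* and *Tnfrsf11b* was found in 31 cells. Each of these genes was sparse by itself. Whether they met in a cell more or less often than by chance was not tested.

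In sublining fibroblasts, *Csf1* was the ligand with the clearest loss after injury. Its level was 221 and 294.8 CPM in the steady-state Tom+ libraries and 45.0, 68.5, 70.5 and 66.5 CPM in the injured ones. The groups did not overlap, with means of 258 ± 52.2 (SD, n = 2) and 62.6 ± 11.9 (SD, n = 4). By edgeR's quasi-likelihood test over the 12485 genes of this fit, *Csf1* fell by 2.08 ± 0.21 (SE) on the log2 scale, 4.24-fold, with an adjusted p of 0.00120. Of the 5 genes, 2 passed this test in Tom+ sublining fibroblasts, *Csf1* downwards and *Tnfsf11* upwards, where 12.6% of all genes tested passed.

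The fall of *Csf1* was also seen as a smaller share of positive cells at equal depth, with cells classed again after thinning. In cells thinned to 5000 UMIs, 59.8% (95% exact binomial interval 52.6 to 66.7) and 67.4% (61.4 to 73.0) of steady-state Tom+ sublining fibroblasts had a *Csf1* UMI. In the injured Tom+ libraries the shares were 20.9% (16.2 to 26.3), 27.7% (22.2 to 33.8), 29.7% (23.1 to 37.1) and 25.8% (20.5 to 31.7). The intervals cover counting error only, and none of the steady-state intervals overlapped an injured one. Immune-like cells (at least 2 markers such as *Ptprc* and *Tyrobp*), which give the level to be read as background, had a *Csf1* UMI in 3.13% of 32 cells and 0% of 24 cells at the same depth, with upper exact limits of 16.2% and 14.3%.

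Tom-GFP+ sublining fibroblasts had 189.7 CPM of *Csf1* in the single steady-state library and 76.1 and 73.4 CPM after injury. The difference of -1.35 ± 0.30 (SE) on the log2 scale had the same sign as in Tom+ cells but did not pass over all genes (adjusted p = 0.0593, edgeR), in a comparison where 1.71% of genes passed and none of the 5 genes did. The steady-state arm has no replicate and takes its spread from the other groups. Under other settings this call was made in 6 of 20. The change in Tom-GFP+ cells minus that in Tom+ cells was 0.74 ± 0.39 for *Csf1*, which did not pass (adjusted p = 1.00, edgeR). In that test of the lineages' difference 0.00% of genes passed (0 of 12485 by edgeR; DESeq2 called 1, and 223 had p values under 0.05 before adjustment), with none of the 5 genes at an unadjusted p under 0.05.

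**Figure D1:**
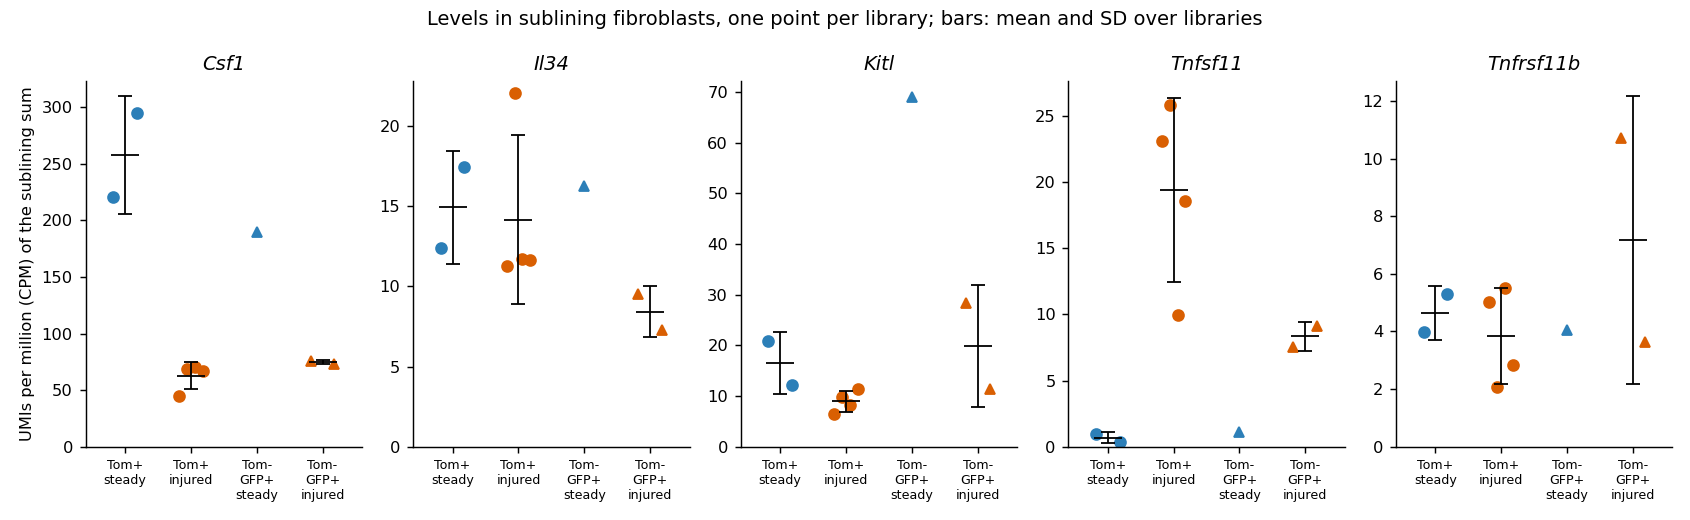
Levels of the 5 genes in sublining fibroblasts, in CPM, with 1 point per library in the 4 groups of lineage and state and bars at the mean and SD of groups with more than 1 library. *Csf1* lay at 189.7 to 294.8 CPM in the 3 steady-state libraries and at 45.0 to 76.1 CPM in the 6 injured ones, *Tnfsf11* at 0.379 to 1.11 and 7.55 to 25.9 CPM, and *Il34* and *Tnfrsf11b* overlapped between states.

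The promoters of *Csf1* and *Tnfsf11* are shown because these genes moved in opposite directions after injury. The sequences are the 250 bases before the start of each gene in RefSeq on GRCm38.p6, 5′ to 3′ on the gene's own strand. Capitals mark matches, on either strand, to GGGCGG (GC box), TATAAA (named the TATA box), TGACTCA (AP-1), TGACGTCA (CRE) and TGTGGT (RUNX), none of which overlapped another.
Csf1 (chr3:107760470-107760719, minus strand): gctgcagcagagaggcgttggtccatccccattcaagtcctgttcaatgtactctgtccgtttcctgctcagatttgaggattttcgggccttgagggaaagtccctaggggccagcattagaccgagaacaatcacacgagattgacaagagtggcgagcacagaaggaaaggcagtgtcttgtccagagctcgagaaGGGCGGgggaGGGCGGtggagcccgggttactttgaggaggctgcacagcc
Tnfsf11 (chr14:78308044-78308293, minus strand): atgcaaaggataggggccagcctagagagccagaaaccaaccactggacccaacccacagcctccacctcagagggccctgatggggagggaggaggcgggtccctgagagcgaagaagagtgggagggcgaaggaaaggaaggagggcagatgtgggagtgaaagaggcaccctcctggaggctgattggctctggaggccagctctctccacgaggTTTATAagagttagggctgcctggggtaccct
The *Csf1* window held 2 GC boxes and none of the other motifs, at a GC content of 56.4%. The *Tnfsf11* window, at 60.4% GC, held 1 TATA box match on the reverse strand, written TTTATA here and beginning 32 bases before the start, and no other match. Among 32851 promoter windows of the same length, 32.7% held a GC box match, 12.4% a TATA box, 4.46% an AP-1, 1.55% a CRE and 14.1% a RUNX match. A match is a description of letters and does not show a bound site. Windows were found for 3 of the 5 genes, with *Il34* and *Tnfrsf11b* not matched.

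*Tnfsf11*, the RANKL gene, was close to undetected in sublining fibroblasts of the steady state and was present in every injured library. In Tom+ cells there were 2 and 1 UMIs in the steady-state libraries (0.994 and 0.379 CPM) and 152, 88, 29 and 59 UMIs in the injured ones (23.1, 25.9, 9.97 and 18.6 CPM). The groups did not overlap, although the third injured library lay well under the other 3. *Tnfsf11* rose by 4.80 ± 0.62 (SE) on the log2 scale (adjusted p = 0.00300, edgeR). With so few steady-state UMIs the fold is imprecise: pooled over libraries, 328 UMIs against 3 gave a ratio of 31.7, with a counting interval of 10.7 to 154.

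Most sublining fibroblasts of injured knees still had no *Tnfsf11* UMI. At 5000 UMIs per cell, the share of Tom+ sublining fibroblasts with one was 0 of 199 and 0 of 264 cells in the steady state, with upper exact limits of 1.84% and 1.39%. After injury it was 8.75% (5.63 to 12.8), 8.26% (5.12 to 12.5), 1.14% (0.139 to 4.07) and 3.97% (1.92 to 7.18). The injured libraries thus fell into a pair near 8% to 9% and a pair under 4%, and the interval of the third overlapped those of the steady state. Mural-like cells of injured knees, which give the background, had a UMI in 0 of 36 and 0 of 23 cells.

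Tom-GFP+ sublining fibroblasts had 3 *Tnfsf11* UMIs in the steady state (1.11 CPM) and 38 and 20 UMIs after injury (7.55 and 9.11 CPM). The difference of 2.85 ± 0.80 (SE) on the log2 scale did not pass (adjusted p = 0.0990, edgeR, and 0.00178 with no filter on low counts), and the pooled ratio was 7.25 with a counting interval of 2.36 to 36.2. All 4 injured Tom+ libraries lay above both injured Tom-GFP+ libraries, yet the difference between lineages after injury, -1.26 ± 0.38, did not pass either (adjusted p = 0.582, edgeR, and 0.0126 with no filter). In that comparison 0.00801% of genes passed, a single gene that was none of the 5. The change in Tom-GFP+ cells minus that in Tom+ cells was -1.95 ± 1.27 for *Tnfsf11* (adjusted p = 1.00, edgeR).

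Within the sublining, *Tnfsf11* was found away from *Dpp4*+ cells, the class that carries markers of *Pi16*+ universal fibroblasts. The *Dpp4*+ cells had 12 *Tnfsf11* UMIs over 9 libraries (1.57 CPM pooled, 0 to 6.94 CPM by library). Sublining fibroblasts that were neither *Dpp4*+ nor *Lrrc15*+ *Adam12*+ had 211 (15.5 CPM pooled). The pooled ratio was 0.101, with a counting interval of 0.0515 to 0.181, and both pools mix steady-state with injured libraries. *Tnfsf11* was too sparse in this comparison for the test. *Lrrc15*+ *Adam12*+ cells, a class that had no cells in the steady-state libraries and 25 to 162 cells in each injured one, held 23.5, 27.5, 10.1 and 20.8 CPM in Tom+ and 8.95 and 12.4 CPM in Tom-GFP+ libraries. The other sublining fibroblasts of the same libraries held 26.4, 32.6, 11.6 and 27.7 CPM and 5.50 and 14.9 CPM. The log2 difference was -0.14 ± 0.17 (SE) (adjusted p = 0.697, edgeR), in a comparison where 10.5% of genes passed. *Tnfsf11* was thus found after injury outside the *Lrrc15*+ *Adam12*+ class as well. Cells outside it may still express *Lrrc15* or *Adam12*, since the class asks for a UMI of both. Without the *Lrrc15*+ *Adam12*+ class the rise of *Tnfsf11* in Tom+ sublining fibroblasts also passed the test.

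*Csf1* was distributed the other way round. The *Dpp4*+ cells had 218 and 324 CPM of *Csf1* in steady-state Tom+ libraries against 223 and 275 CPM in the other sublining fibroblasts, and 211.8 against 159 CPM in the Tom-GFP+ library. After injury they had 49.9, 144.5, 117 and 93.9 CPM against 59.9, 69.9, 71.5 and 55.9 CPM in Tom+, and 143.7 and 99.9 CPM against 79.0 and 59.5 CPM in Tom-GFP+ libraries. *Dpp4*+ cells were higher in 7 of 9 libraries, by 0.51 ± 0.12 (SE) on the log2 scale (adjusted p = 0.00623, edgeR), where 14.1% of genes passed and *Csf1* was the 1 of the 3 genes in the fit that did (*Tnfsf11* and *Tnfrsf11b* were too sparse). In *Lrrc15*+ *Adam12*+ cells *Csf1* was lower than in the other sublining fibroblasts in 6 of 6 injured libraries, at 19.0 to 58.0 CPM, by 0.76 ± 0.18 (SE) on the log2 scale (adjusted p = 0.0195, edgeR), a call lost in thinned cells and without the first or the third injured Tom+ library.

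The make-up of the sublining moved with injury. *Dpp4*+ cells numbered 87 of 236 and 110 of 310 cells in steady-state Tom+ libraries and 24 of 305, 48 of 274, 42 of 192 and 85 of 281 after injury. Within *Dpp4*+ cells alone *Csf1* fell by 1.40 on the log2 scale in Tom+ libraries, and without *Lrrc15*+ *Adam12*+ cells by 1.84, and both values passed the test (these subsets were chosen after seeing the data).

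Markers of macrophages and osteoclasts were read beside these results. In Tom+ sublining fibroblasts the 8 macrophage markers summed to 4.93 to 27.8 CPM in the steady state and 6.69 to 47.8 CPM after injury, with *Fcgr1* at 0 in all libraries. The 6 immune markers summed to at most 2.41 CPM, with *Ptprc* and *Cd52* at 0 in every Tom+ library. Cells with at least 2 of these 6 markers had been classed as immune-like, so low sums in the sublining of either lineage follow in part from the gate. Of 7 osteoclast markers, *Calcr* and *Dcstamp* were at 0, and the summed level of 84.0 to 126 and 99.6 to 314 CPM includes *Acp5*. In Tom-GFP+ sublining fibroblasts the macrophage markers summed to 4.06 CPM in the steady state and 11.1 and 19.6 CPM after injury, the osteoclast markers to 36.5 and then 118 and 127 CPM, and the immune markers to 0.738 and then 0.794 and 3.19 CPM. The 3 macrophage markers and 2 osteoclast markers in the fit did not pass with injury in either lineage, at median log2 changes of 0.83 and 0.80 in Tom+ and 3.19 and 0.57 in Tom-GFP+ cells. Their part in the changes of the 5 genes was not tested. Depth per cell also moved with injury, and its part was not tested beyond the thinned cells, in which both changes passed the same test.

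*Il34*, the other CSF1R ligand, showed no change with injury that passed a test. Sublining fibroblasts had 12.4 and 17.4 CPM in steady-state Tom+ libraries and 11.3, 22.1, 11.7 and 11.7 CPM after injury, which overlapped. The log2 difference was -0.13 ± 0.33 (SE) (adjusted p = 0.820, edgeR). In Tom-GFP+ cells the level was 16.2 CPM in the steady state and 9.53 and 7.29 CPM after injury, a difference of -0.92 ± 0.46 (adjusted p = 0.311, edgeR).

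Among the classes tested, *Il34* was highest in mural-like cells, which carry at least 3 of 6 markers of smooth muscle and pericytes such as *Rgs5*, *Notch3* and *Myh11*. They had 225.0 and 356 CPM in the first and second injured Tom+ libraries, against 11.3 and 22.1 CPM in sublining fibroblasts of the same libraries. The difference of 3.99 ± 0.25 (SE) on the log2 scale, 15.9-fold, passed the test (adjusted p = 5.87e-06, edgeR). At 5000 UMIs per cell, 61.1% of 36 and 73.9% of 23 mural-like cells had an *Il34* UMI against 4.56% and 9.50% of sublining fibroblasts in these libraries. The comparison rests on 2 libraries of 1 group, and in it 12.7% of genes passed.

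*Kitl* was also high in mural-like cells. It had 42.6 and 102 CPM there against 6.39 and 9.70 CPM in sublining fibroblasts, a difference of 2.87 ± 0.36 (SE) on the log2 scale (adjusted p = 0.000478, edgeR). *Tnfsf11* behaved in the opposite way, with 0 UMIs in mural-like cells of both libraries against 240 in sublining fibroblasts, at least 5.76-fold lower at a floor of 3 counts over both libraries (adjusted p = 0.00499, edgeR). *Csf1*, at 52.7 and 35.6 CPM, did not pass there (-0.37 ± 0.34, adjusted p = 0.591, edgeR). *Tnfrsf11b* had 38.5 CPM in the first library and 0 in the second. Of 6 endothelial markers *Emcn* was in the fit and passed, higher in mural-like cells, where the 6 summed to 50.7 and 40.0 CPM against 3.19 and 2.35 CPM in the sublining, with *Pecam1*, *Cdh5*, *Kdr* and *Tie1* at 0 UMIs in both mural-like sums. Cells with at least 2 endothelial markers had been classed as endothelial-like, which by itself limits these sums. The differences of *Il34*, *Kitl* and *Tnfsf11* passed as well in the 42 mural-like cells with no UMI of the endothelial markers, a subset chosen after seeing the data.

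Endothelial-like cells, with at least 2 of those markers, entered no comparison and were few. In the injured Tom+ libraries 21 of them held 89 *Kitl* UMIs, 18.0% of the UMIs of *Kitl* in 0.894% of all UMIs, and 31 *Il34* UMIs, 3.64% of those of *Il34*.

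Chondrocyte-lineage-like cells had few or no UMIs of *Il34* and *Kitl*. In the 3 Tom+ libraries with at least 10 of these cells, both genes had 0 UMIs, at least 1.82-fold lower for *Il34* and 1.43-fold lower for *Kitl* than in sublining fibroblasts at the floor of 3 counts, and neither passed (adjusted p = 0.113 and 0.155, edgeR, and for *Kitl* 0.0347 with libraries of at least 5 cells included). In Tom-GFP+ libraries, which held too few of these cells for the test, 8 cells of the steady state had 1 *Il34* and 2 *Kitl* UMIs, and 12 cells after injury had 1 and 0. *Csf1* was low, with 7.48 CPM in the steady-state library and 10.8 and 27.7 CPM in the injured ones. It was lower than in sublining fibroblasts by 2.86 ± 0.61 (SE) on the log2 scale (adjusted p = 0.00765, edgeR), and the call was lost without the steady-state library (-1.76) or the third injured one (-2.86).

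The OPG gene was high in these cells of the Tom+ libraries. *Tnfrsf11b* had 187 CPM in chondrocyte-lineage-like cells of the second steady-state library and 495 and 210.4 CPM in the third and the fourth injured libraries, against 5.31, 5.50 and 2.84 CPM in sublining fibroblasts of the same libraries. The difference of 5.88 ± 0.42 (SE) on the log2 scale passed (adjusted p = 3.78e-07, edgeR), and the pooled ratio was 59.9 with a counting interval of 41.2 to 88.7. Of the 5 genes 2 passed in this comparison, where 7.55% of all genes did and the median gene was shifted by -0.18 on the log2 scale. These cells were sorted as Tom+ and numbered 10, 16 and 14. Over both lineages the class held 16.8% of *Tnfrsf11b* UMIs in the steady state, where osteoblast-lineage-like cells held 22.0%, and 23.25% after injury, where sublining fibroblasts held 25.5%. In the steady-state Tom-GFP+ library its 8 cells had 2 *Tnfrsf11b* against 6 *Tnfsf11* UMIs.

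Osteoblast-lineage-like cells, with at least 3 of 8 markers such as *Ibsp*, *Sp7* and *Alpl*, held both members of the RANKL and OPG pair. *Tnfsf11* was at 22.5 and 34.6 CPM in the steady state and 52.3 and 92.6 CPM in the first and second injured Tom+ libraries, above sublining fibroblasts in 4 of 4 libraries. The difference of 2.22 ± 0.51 (SE) on the log2 scale passed (adjusted p = 0.0200, edgeR), in a comparison where 8.12% of genes passed and *Tnfsf11* was the 1 of the 4 genes in the fit that did. *Csf1* did not pass (log2 difference -0.90, adjusted p = 0.107, edgeR) but did with no filter (0.00119) and without the first injured library (0.0201). The call of *Tnfsf11* was lost without the first steady-state or the second injured library. *Tnfrsf11b* was at 239.6 and 48.4 CPM in the steady state and 8.04 and 23.7 CPM after injury. It was too sparse in this comparison for the test, with 58 UMIs against 62 in sublining fibroblasts, a pooled ratio of 12.5 and a counting interval of 8.60 to 18.2.

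Tenocyte-lineage-like cells, with at least 2 of 5 markers such as *Tnmd* and *Kera*, were found in all 9 libraries, and 4 of the 5 genes passed there, where 7.84% of all genes did. *Csf1* was lower than in sublining fibroblasts in 9 of 9 libraries, at 155, 108 and 114.9 CPM in the steady state and 18.6 to 42.7 CPM after injury. The difference was -1.01 ± 0.13 (SE) on the log2 scale (adjusted p = 0.000148, edgeR). *Kitl* was lower in 9 of 9 libraries, at 0 to 6.88 CPM, by 1.92 ± 0.31 on the log2 scale (adjusted p = 0.000780, edgeR).

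The RANKL and OPG genes both lay higher in tenocyte-lineage-like cells. *Tnfsf11* was at 0, 19.9 and 3.71 CPM in the steady-state libraries, at 47.3, 23.8, 16.4 and 10.7 CPM in injured Tom+ and at 78.2 and 27.0 CPM in injured Tom-GFP+ libraries, higher than in sublining fibroblasts in 6 of 9. Its difference of 1.30 ± 0.39 (SE) on the log2 scale was at the threshold (adjusted p = 0.0489, edgeR) and the call was lost in 10 of 15 other settings, among them those without either steady-state Tom+ library, the steady-state Tom-GFP+ library, the first or the third injured Tom+ library or either injured Tom-GFP+ library. In the second steady-state Tom+ library 8 of the 9 *Tnfsf11* UMIs were in 1 cell, and the steady-state Tom-GFP+ level was 1 UMI. In the first injured Tom-GFP+ library 28 of 91 *Tnfsf11* UMIs were in 1 cell. *Tnfrsf11b* was at 0 to 29.2 CPM, higher in 7 of 9 libraries, by 1.53 ± 0.35 (adjusted p = 0.00970, edgeR). In the second injured Tom+ library 37 of its 40 UMIs were in 1 cell, and the call was made without that library as well.

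**Figure D2:**
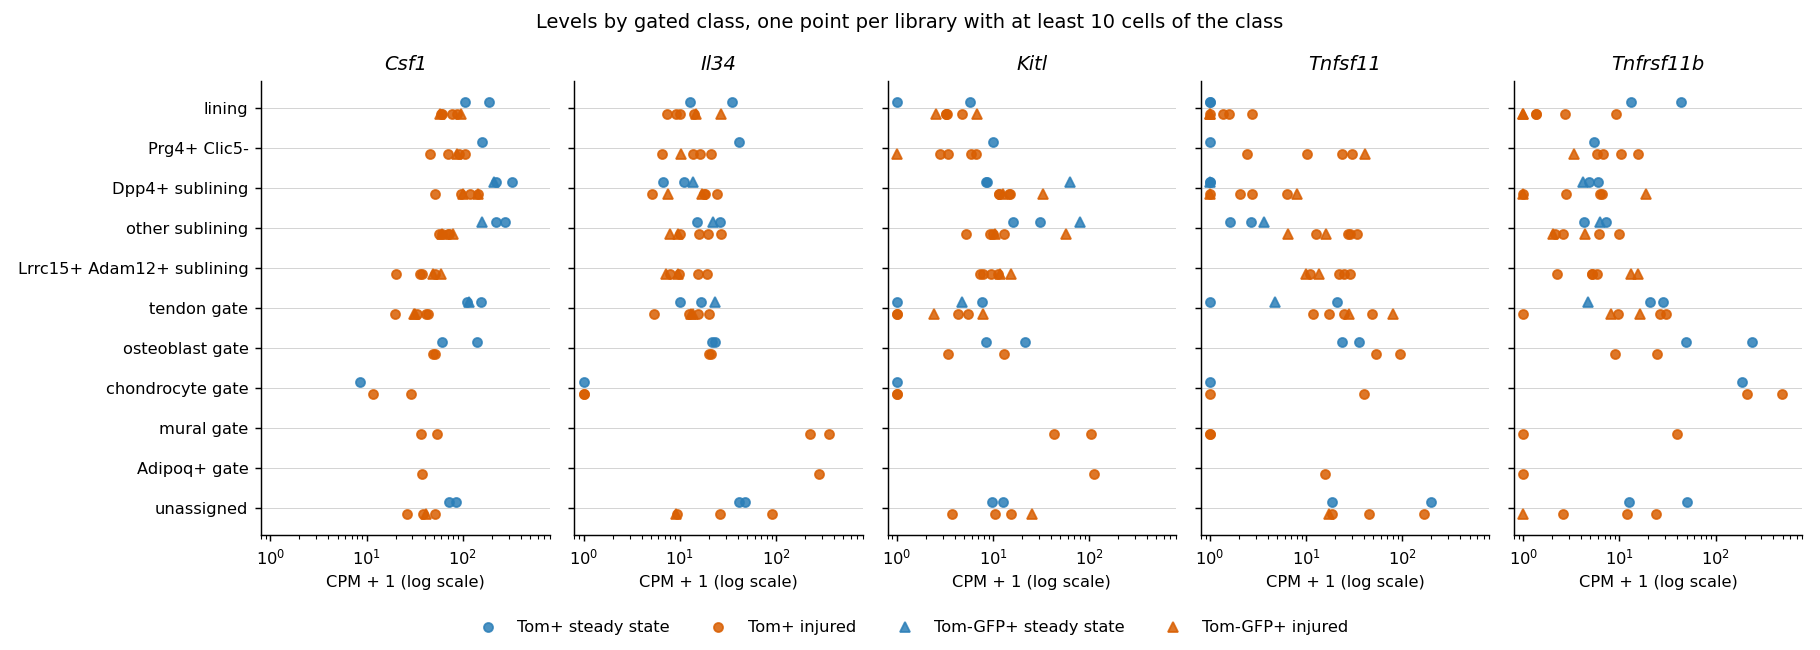
Levels of the 5 genes in each class of cells, as CPM + 1 on a log axis, with 1 point per library that had at least 10 cells of the class. Colours separate steady state from injured and symbols separate Tom+ from Tom-GFP+ (a gate is a class set by its markers). *Il34* was at 225.0 and 356 CPM in mural-like cells and *Tnfrsf11b* at 187 to 495 CPM in chondrocyte-lineage-like cells, against 7.29 to 22.1 and 2.06 to 10.7 CPM in sublining fibroblasts.

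Lining fibroblasts differed from the sublining in *Kitl*. In Tom+ libraries the lining had 0 and 4.76 CPM in the steady state and 2.32, 3.78, 2.21 and 2.25 CPM after injury, lower than the sublining in 6 of 6 libraries. The difference was -1.93 ± 0.30 (SE) on the log2 scale (adjusted p = 0.000521, edgeR), and *Kitl* was the 1 of the 4 genes in the fit that passed, where 30.5% of all genes did. *Csf1* and *Il34* were both present in the lining and their differences from the sublining, -0.28 ± 0.24 and -0.54 ± 0.28, did not pass (adjusted p = 0.406 and 0.172, edgeR). *Il34* passed with no filter (0.0325) and without the first steady-state library (-0.76, adjusted p = 0.0286). *Tnfsf11* was nearly absent from the lining, with 5 UMIs against 331 in the sublining of the same 6 libraries, a pooled ratio of 0.0317 and a counting interval of 0.0102 to 0.0747. It was not in the fit because its counts were low.

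With injury, *Csf1* in Tom+ lining fibroblasts went from 188 and 105 CPM to 77.2, 85.2, 59.6 and 58.0 CPM. The groups did not overlap, yet the difference of -0.97 ± 0.28 (SE) on the log2 scale did not pass (adjusted p = 0.0789, edgeR, and 0.00294 with no filter). *Csf1*, *Il34* and *Tnfrsf11b* were in the fit and none passed in this comparison, where 3.46% of genes did, while *Tnfsf11* and *Kitl* were too sparse for it. *Tnfrsf11b* in the lining was at 12.3 and 42.9 CPM in the steady state and 8.12, 0.344, 0.368 and 1.69 CPM after injury, a difference of -3.53 ± 1.01 (adjusted p = 0.0831, edgeR, and 1.84e-06 with no filter). In the second steady-state library 12 of its 18 UMIs came from 1 cell, and in the first injured library 12 of its 14. The steady-state lining rested on 23 and 29 cells.

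*Prg4*+ *Clic5*- cells, which express *Prg4* without the lining marker *Clic5*, did not differ from the sublining in any of the 5 genes by the test, in a comparison where 8.09% of genes passed. *Kitl* came closest, at -1.43 ± 0.41 (SE) on the log2 scale (adjusted p = 0.0505, edgeR). It passed with no filter (1.28e-05) and without the first injured Tom+ library (adjusted p = 0.0222), and *Csf1* passed in thinned cells (-0.46, adjusted p = 0.0325). The class held unlike cells in the 2 states. In the steady state it led over the sublining with *Msmp* (6827 CPM), *Cytl1* and *Wif1*, while after injury *Msmp* was at 159.8 CPM and *F13a1*, *Prg4* and *Htra4* were among its leading genes. *Tnfsf11* was at 0 CPM in the one steady-state library with enough of these cells and at 28.8, 22.6, 1.42 and 9.16 CPM in injured Tom+ libraries and 39.9 CPM in the first injured Tom-GFP+ library. Its difference from the sublining was 0.10 ± 0.36 (adjusted p = 0.951, edgeR), while in the *Clic5*+ lining of the same injured libraries it stayed at 0 to 1.74 CPM.

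**Figure D3:**
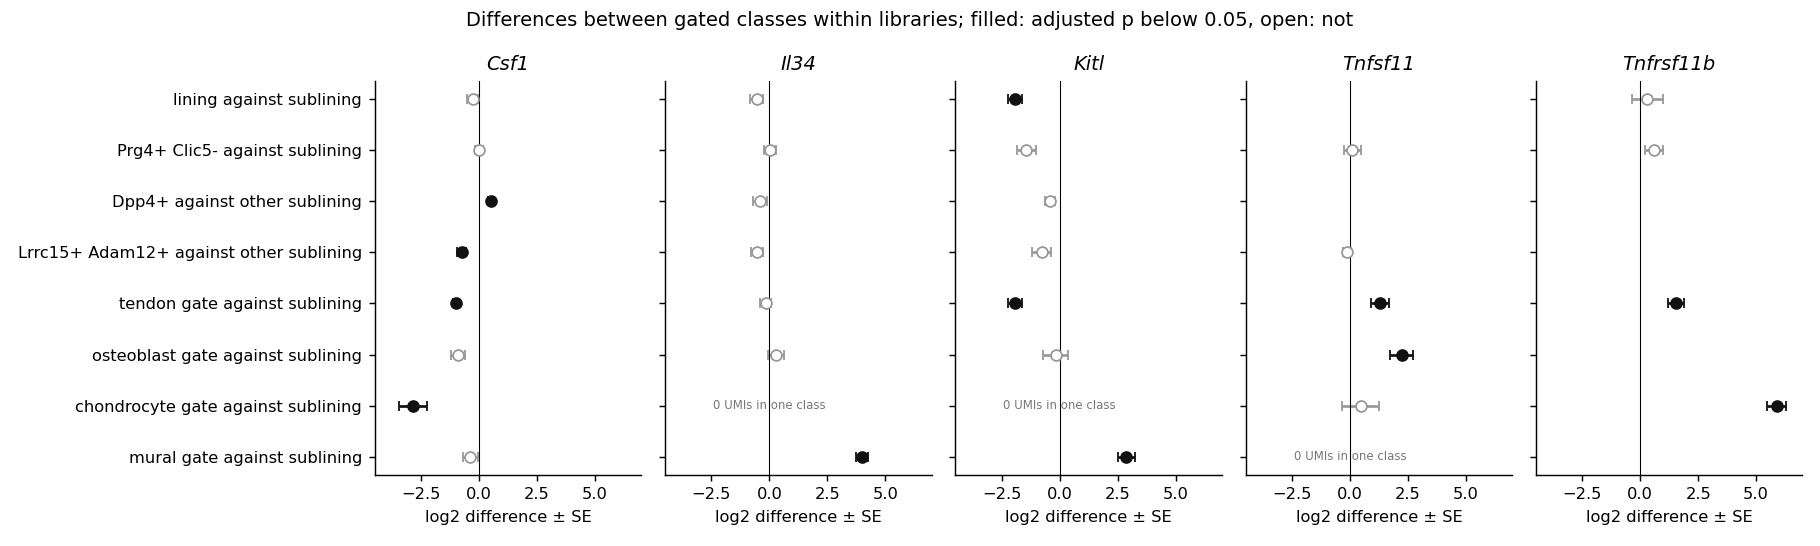
Log2 differences of the 5 genes between each class and the sublining class it was set against, from edgeR, with bars of 1 SE and filled points where the adjusted p was under 0.05. Genes with 0 UMIs in one class are named as such and genes outside the fit are blank. *Tnfrsf11b* in chondrocyte-lineage-like cells (5.88) and *Il34* in mural-like cells (3.99) lay highest among differences with UMIs in both classes.

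In the sublining, *Kitl* did not pass for injury or between lineages. It was at 20.9 and 12.1 CPM in steady-state Tom+ and 69.0 CPM in the steady-state Tom-GFP+ library, and at 6.39, 9.70, 8.25 and 11.3 CPM and 28.4 and 11.4 CPM after injury. The injured difference between lineages was 1.22 ± 0.37 (SE) on the log2 scale and did not pass (adjusted p = 0.582, edgeR). The differences with injury, -0.93 ± 0.40 in Tom+ and -1.74 ± 0.48 in Tom-GFP+ cells, did not pass either (adjusted p = 0.148 and 0.0910, edgeR). With no filter on low counts all 3 passed (adjusted p = 0.00135 between lineages, 0.0242 in Tom+ and 3.00e-05 in Tom-GFP+ cells), and the fall in Tom-GFP+ cells passed without the first injured Tom+ library as well (0.0263).

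A small group of cells carried much of the Tom-GFP+ signal. It was picked by *C7* and *Fmo2*, markers of F5, 1 of the study's *Thy1*+ fibroblast clusters. *Kitl* is listed with these markers for F5 from the same data. Its high level there is therefore a description and not an independent result. Sublining fibroblasts with UMIs of both *C7* and *Fmo2* made up 24 of 340 cells (7.06%) of the steady-state Tom-GFP+ library and held 90 of its 187 sublining *Kitl* UMIs (48.1%), at 470.6 CPM. In the first injured Tom-GFP+ library such cells made up 24 of 350 (6.86%) and held 36 of 143 UMIs (25.2%), at 212.5 CPM. These cells had 0 UMIs of *Il34*, *Tnfsf11* and *Tnfrsf11b* and 178 and 136 CPM of *Csf1*. Other libraries had fewer than 10 such cells. In cells with neither marker, *Kitl* was at 29.3 CPM in the steady-state Tom-GFP+ library and 18.3 and 11.6 CPM after injury, and at 19.3 and 12.6 CPM and 6.40 to 10.6 CPM in the Tom+ libraries. The difference with injury in Tom-GFP+ cells was then -0.92 on the log2 scale. The comparison without them was chosen after seeing the data.

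**Figure D4:**
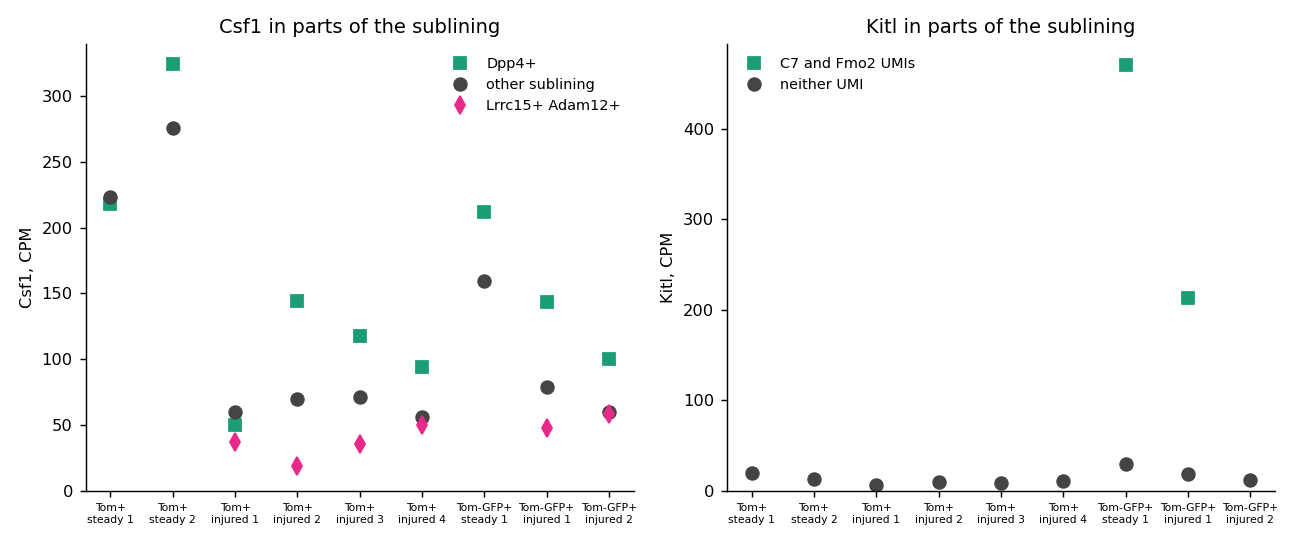
*Csf1* (left) and *Kitl* (right) in subsets of sublining fibroblasts, in CPM, with 1 point per library and subset and libraries along the horizontal axis. *Csf1* in *Dpp4*+ cells lay at 211.8 to 324 CPM in the steady state and at 49.9 to 144.5 CPM after injury, and *Kitl* in cells with *C7* and *Fmo2* UMIs at 470.6 and 212.5 CPM.

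The balance of the RANKL and OPG genes was read as log2 of the ratio of their UMIs within a library, with 0.5 added to each. In Tom+ sublining fibroblasts it was -1.77 and -3.27 in the steady state and 2.19, 3.56, 0.84 and 2.65 after injury. All injured libraries lay above both steady-state ones, by 4.83 in the mean (exact permutation test, 2-sided, p = 0.0667, the smallest that 4 against 2 libraries allow). The numerator moved and the denominator did not pass: *Tnfrsf11b* in the sublining was at 3.97 and 5.31 CPM in the steady state and 5.02, 2.06, 5.50 and 2.84 CPM after injury (log2 difference -0.30 ± 0.55, adjusted p = 0.753, edgeR). In Tom-GFP+ sublining fibroblasts it was at 4.06 CPM in the steady state and 10.7 and 3.65 CPM after injury (0.89 ± 0.76, adjusted p = 0.557, edgeR). The log2 ratio there was -1.72 in the steady state and -0.50 and 1.27 after injury. The first injured Tom-GFP+ library thus stayed on the OPG side, with 38 *Tnfsf11* against 54 *Tnfrsf11b* UMIs.

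In the lining the ratio was -3.17 and -5.21 in the steady state and -2.05, -1.59, 0.00 and -1.22 after injury, a difference of 2.98 (exact permutation p = 0.0667). There, RANKL UMIs were at most 3 in a library, so the ratio moved with the OPG counts. Osteoblast-lineage-like cells had -3.22 and -0.47 in the steady state and 2.43 and 1.91 after injury, a difference of 4.01 (exact permutation p = 0.333, the smallest possible), and tenocyte-lineage-like cells overlapped between states (difference 2.65, exact permutation p = 0.267). Chondrocyte-lineage-like cells stayed on the OPG side in all 3 libraries, at -5.67, -6.54 and -2.36. These are 6 classes compared in 1 family, and none of the p-values passed before adjustment.

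**Figure D5:**
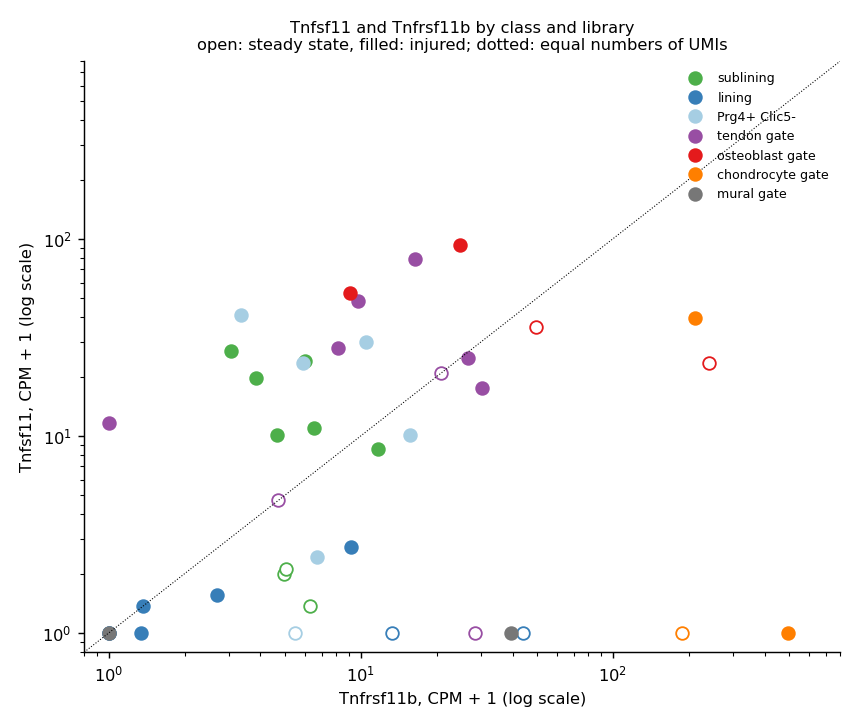
*Tnfsf11* (vertical) against *Tnfrsf11b* (horizontal), both as CPM + 1 on log axes, with 1 point per class and library of either lineage, open for steady state and filled for injured, and a dotted line at equal numbers of UMIs. Sublining fibroblasts of the 2 steady-state Tom+ libraries lay below the line (0.994 and 0.379 CPM of *Tnfsf11* against 3.97 and 5.31 CPM of *Tnfrsf11b*), those of the 4 injured Tom+ libraries above it, the first injured Tom-GFP+ library below it (7.55 against 10.7 CPM), and chondrocyte-lineage-like cells far to the right at 187 to 495 CPM of *Tnfrsf11b*.

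Summed over all stromal cells, whatever their class, *Csf1* in Tom+ libraries fell by 1.73 ± 0.17 (SE) on the log2 scale with injury (adjusted p = 0.00206, edgeR). *Tnfrsf11b* fell by 1.17 ± 0.31 (adjusted p = 0.0392), from 20.5 and 26.3 CPM to 9.35, 9.88, 11.4 and 9.23 CPM, with no overlap. *Tnfsf11* was at 8.12 and 5.95 CPM and then 26.0, 27.2, 6.06 and 12.9 CPM, which overlapped and did not pass (adjusted p = 0.142, edgeR, and 0.0337 with no filter). In the first steady-state library, at 8.12 CPM, 17 of the *Tnfsf11* UMIs came from 1 unassigned cell, and the sums were not tested without it. The call of *Tnfrsf11b* was lost in 8 of 18 other settings, among them thinned cells (-0.66, adjusted p = 0.350) and those without either steady-state Tom+ library or the second, the third or the fourth injured one, while that of *Csf1* was made in 18 of 18. These sums, added after seeing the data, also carry the change in the shares of classes, and 13.7% of genes passed in them.

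Other genes of these pathways were counted by list. Among 6 receptors and co-receptors for the encoded proteins, 3 were tested in the sublining, and *Sdc1*, a syndecan that binds IL-34, rose with injury by 1.33 ± 0.19 (SE) on the log2 scale in Tom+ and 2.54 ± 0.30 in Tom-GFP+ cells (adjusted p = 0.00468 and 0.0150, edgeR). Of 15 other stromal signals to myeloid cells 13 were tested, and 3 rose in Tom+ cells, where 12.6% of all genes passed, while none fell: the chemokine *Ccl7* by 1.87, the growth factor midkine *Mdk* by 2.37 and the inhibitor of macrophage migration *Mif* by 2.10. The median change of the 13 was 0.42 against -0.02 over all genes. In Tom-GFP+ cells, where 1.71% of all genes passed, 0 of 13 did.

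Of 10 other stromal regulators of osteoclasts 7 were tested in the sublining, and 3 passed in Tom+ and 2 in Tom-GFP+ cells, against 12.6% and 1.71% of all genes. *Wnt16*, which restrains osteoclast formation, rose in both lineages, and the Wnt antagonist *Sfrp1* rose by 1.11 ± 0.23 (SE) on the log2 scale in Tom+ cells, where *Slit3* fell by 1.05. *Wnt5a*, which promotes osteoclast formation, fell by 1.77 ± 0.35 in Tom-GFP+ cells. Among 10 receptors that act on *Tnfsf11* expression 8 were tested, and 1 passed in Tom+ cells, near the 12.6% of all genes: *Il6ra*, the receptor chain for interleukin-6, fell by 1.87 ± 0.33. The median of the 8 was -0.62. The parathyroid hormone receptor *Pth1r* was higher in osteoblast-lineage-like than in sublining cells by 4.80 ± 0.23 and in tenocyte-lineage-like cells by 0.88 ± 0.15, the 2 classes in which *Tnfsf11* was higher. It was also higher in chondrocyte-lineage-like cells, by 2.93 ± 0.50, where *Tnfsf11* did not pass (0.46, adjusted p = 0.842, edgeR), and in mural-like cells, by 1.72 ± 0.33, where *Tnfsf11* was lower.

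Of the 15 myeloid signals, 9 were tested in the lining against the sublining and all 9 were lower. In this comparison 30.5% of all genes passed, 1628 of them lower and 1498 higher. A gene could enter the fit through the class where it was high alone, so the count is a description of the genes tested. Among the 9 were *Ccl8*, *Ccl7*, *Gas6* and *Mdk*, with a median difference of -3.63 on the log2 scale. Of 6 osteoclast regulators tested there, 2 were higher and 2 lower, with a median of -0.32. *Sema3a*, which inhibits osteoclast formation, was higher by 4.94 ± 0.29 (SE) and *Tgfb1* by 1.13, while *Wnt5a* was lower by 4.98 ± 0.47 and *Slit3* by 1.24. In mural-like cells *Il6* was higher by 2.93 ± 0.42, and 5 of the 11 myeloid signals tested were lower.

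Genes whose level followed each of the 5 most closely were ranked by Pearson r of log2(CPM + 1) over 50 sums of class and library, among 7871 genes with a mean of at least 10 CPM. The points share libraries, and the values are given as a description. For *Csf1* they were *Gsn* (r = 0.865), *Tapbp*, *Palm*, *Mettl7a1* and *Maob* (0.817), and for *Il34* the smooth muscle gene *Myh11* (0.785), *Higd1b*, *Gja4*, *Mylk* and *Ppp1r12a* (0.744). Of the 50 sums, 2 are of mural-like cells, the class with the high *Il34*, and *Myh11* is a marker of that class. The ranking for *Il34* is therefore not independent of the mural-like result. *Tnfsf11* was most like *Tnn* (0.870), *Emilin1*, *Col1a1*, *Capn6* and *Col16a1* (0.802). *Kitl* was most like *Ccl11* (0.736), *Abcc9*, *Kcnj8*, *Il6st* and *Nrp1* (0.699). No gene came close to *Tnfrsf11b*, with *Ikbkb* the highest at 0.505, followed by *Gm26532*, *Fmod*, *Smtn* and *Rbm10*.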

How the data were processed

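The 9 libraries were made with the 10x Genomics 5′ kit. The authors deposited UMI counts per gene and cell barcode, not normalized, from Cell Ranger on GRCm38.p6 (per the labels, version not given in the sources used here). A barcode was kept if it had 500 or more genes, a total of 1000 or more UMIs and no more than 10% of its UMIs from mitochondrial genes, and no doublet caller was applied, except as an alternative without the 5% of highest Scrublet scores in each library. Cells were classed by UMIs of marker genes. A lineage class asked for a minimum number of its markers, cells that met more than 1 lineage or lining gate were left out as ambiguous, and no clustering was used. The lining asked for at least 20 *Prg4* UMIs per 10000, and *Prg4*+ *Clic5*- cells for at least 10.

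Counts were summed per class and library where at least 10 cells were present and tested in R 4.3.3 with edgeR 4.0.16 (quasi-likelihood, TMM scaling, filterByExpr, Benjamini-Hochberg over all genes tested, threshold 0.05). SE is the log2 change divided by the square root of F. Injury and lineage were tested in 1 fit of 4 groups, and classes were compared within libraries with the library as a block. DESeq2 1.42.0 was an alternative. Shares with exact binomial intervals and levels came from Python 3.11.15. A floor of 3 counts was used where a class had 0 UMIs. PCR duplicates were removed by UMI, and intervals cover counting error only.

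The 5 genes were named by rule in every comparison. From each gene list at most 4 genes that passed, by smallest adjusted p, were named, and for each of the 5 genes the 5 genes most like it. The genes, lists and classes were chosen with earlier results of these data known, and markers of the classes follow the study. Scripts were tested on simulated counts. Per the study, libraries of a group came from separate mice.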

Additional observations from a re-analysis of the deposited data

Results flagged for a closer look

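Among 35 sets of 4 injured Tom+ libraries, 3 had 1 library whose gap to the nearest other exceeded Dixon's 95% critical value, where chance gives about 1 in 20. *Csf1* in sublining fibroblasts was 45.0 CPM in the first injured Tom+ library against 66.5 to 70.5 CPM in the other 3, and this library is also the only injured one with the older gene list and the deepest (median 18570 UMIs per cell). *Il34* in sublining fibroblasts was 22.1 CPM in the second library against 11.3 to 11.7 CPM. *Kitl* in lining fibroblasts was 3.78 CPM in the second library against 2.21 to 2.32 CPM.

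Signal was also present in *Adipoq*+ and unassigned cells, above the limit that a count of 0 allows. They entered no comparison between classes but were part of the sums over all stromal cells. In *Adipoq*+ cells, found in numbers over 10 in the fourth injured Tom+ library alone (14 cells), *Il34* was at 279 CPM and *Kitl* at 110.3 CPM. In unassigned cells, which met no gate and led with *Msmp*, *Bglap2* and *Spp1* in the steady state and *Cfd*, *Adipoq* and *Ibsp* after injury, *Il34* was at 46.7 and 40.6 CPM in the steady-state Tom+ libraries and at 25.0 and 90.8 CPM in the second and the fourth injured ones. *Tnfsf11* in unassigned cells was at 199 CPM in the first steady-state Tom+ library, where all 17 UMIs came from 1 of 18 cells, and at 44.5 and 166 CPM in the first and second injured ones. *Tnfrsf11b* in unassigned cells was at 49.2 CPM in the second steady-state Tom+ library and at 11.1 and 22.9 CPM in the first and second injured ones.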

How the results depend on the processing

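Of 17 results of the 5 genes that passed, 12 passed in every alternative run that gave an adjusted p for the gene. Among them were the fall of *Csf1* (log2 change -2.58 to -1.40 in 21 settings) and the rise of *Tnfsf11* (4.23 to 7.09 in 20) in Tom+ sublining fibroblasts. Runs in which a gene fell out of the fit or had no adjusted p were not counted. Over all 17, the call was made in 200 of the 225 settings counted and no direction changed. Results of the 5 genes that had not passed did so in 24 settings, 12 of them with no filter on low counts (adjusted p = 1.84e-06 to 0.0337), as given beside the values concerned. Counts of genes that passed moved more, and unless stated the cause was not tested. For injury in Tom+ sublining fibroblasts 1572 genes passed, against 2814 with no filter on low counts, 1034 in thinned cells, 677 in *Dpp4*+ cells alone and 198 to 1917 with 1 library left out (198 and 270 without the first and second steady-state library, which leaves that arm a lone library assumed to vary like the others). In Tom-GFP+ cells 213 passed, against 468 by DESeq2, 1630 with no filter, 635 with the gene list format as a block, 326 without *Lrrc15*+ *Adam12*+ cells and 4 to 1048 with 1 library left out. For the difference of these changes 0 passed, against 1 by DESeq2, 73 with no filter, 2 with the format as a block and 0 to 2 with 1 library left out. Between lineages after injury 1 passed, against 47 by DESeq2, 390 with no filter, 3 in thinned cells, 10 with the format as a block, 5 without cells with *C7* or *Fmo2*, 2 in *Dpp4*+ cells alone and 1 to 13 with 1 library left out. For injury in the lining 320 passed, against 1018 with no filter, 137 in thinned cells, 65 with the format as a block and 10 to 496 with 1 library left out. For injury in all stromal cells 2032 passed, against 1133 with the format as a block and 143 to 2271 with 1 library left out. Between classes, the counts with no filter were 1571 (*Prg4*+ *Clic5*-, main 819), 1320 (osteoblast-lineage-like, 677), 1288 (tenocyte-lineage-like, 748) and 1391 (*Lrrc15*+ *Adam12*+, 912). In thinned cells they were 1879 (lining, main 3126), 436, 408 and 106 for the osteoblast-, tenocyte-lineage-like and *Lrrc15*+ *Adam12*+ classes and 708 (*Dpp4*+, main 1093). The mural-like count was 674 by DESeq2 (main 1267), the chondrocyte-lineage-like count 1078 with a minimum of 5 cells (main 673) and the tenocyte-lineage-like count 420 with at least 3 markers. With 1 library left out the counts were 2348 to 3112 (lining), 503 to 807 (*Prg4*+ *Clic5*-), 386 to 750 (osteoblast-lineage-like), 166 to 807 (chondrocyte-lineage-like), 599 to 832 (tenocyte-lineage-like), 919 to 996 (*Dpp4*+) and 507 to 975 (*Lrrc15*+ *Adam12*+).

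Log2 values that changed sign had not passed. With injury in Tom+ sublining fibroblasts they were *Il34* (0.29 in thinned cells, 0.078 without *Lrrc15*+ *Adam12*+ cells, 0.88 in *Dpp4*+ cells alone, -0.40 to 0.17 with 1 library left out), *Tnfrsf11b* (1.02 in thinned cells, 0.042 with the format as a block) and *Kitl* (0.64 in *Dpp4*+ cells alone). In all stromal cells *Il34* was -0.070 with the format as a block. *Tnfrsf11b* was -0.94 in thinned cells for the difference of the changes and -0.29 between lineages, and with 1 library left out -0.14 to 1.42 for injury in Tom-GFP+ cells and -0.12 to 1.43 between lineages. In the lining it was -0.21 by DESeq2 and -0.55 to 0.86 with 1 library left out. In *Prg4*+ *Clic5*- cells, *Tnfsf11* was -0.063 by DESeq2, -0.0039 with no filter and -0.24 to 0.26 with 1 library left out, *Il34* -0.087 with no filter, -0.26 in thinned cells and -0.12 to 0.25, and *Csf1* -0.10 to 0.18. *Kitl* was 0.023 in osteoblast-lineage-like cells with a minimum of 5 cells and -0.69 to 0.21 with 1 library left out, and -1.12 to 0.14 in *Lrrc15*+ *Adam12*+ cells. *Il34* in tenocyte-lineage-like cells was 0.0053 without the highest Scrublet scores and -0.26 to 0.10 with 1 library left out, and *Tnfsf11* in *Lrrc15*+ *Adam12*+ cells 0.011 with the stricter cell filter.

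Whether the replicate numbers pair the samples could not be settled. Deviations of same-numbered libraries correlated at -0.05 to 0.29. Injured Tom+ and Tom-GFP+ libraries of the same number correlated at 0.29 (first) and 0.10 (second). In groups of 2 libraries the deviations mirror each other, so these values cannot show whether lineages share a mouse. With a replicate block 1568 genes passed for injury in Tom+ sublining fibroblasts, 559 in Tom-GFP+ cells, 5 between lineages, 122 in the lining and 1187 in all stromal cells, where *Tnfsf11* passed (2.02, adjusted p = 0.0212) and the call of *Tnfrsf11b* was lost (-1.24, adjusted p = 0.0995), *Csf1* in Tom-GFP+ cells passed (-1.49, adjusted p = 0.0349), and *Il34* in Tom+ cells was at 0.057. No value could be had for injury in Tom-GFP+ cells without its only steady-state library, for mural-like cells with either library left out, or for *Adipoq*+ cells, found in 1 library. The ratio of *Tnfsf11* to *Tnfrsf11b* in the sublining differed by 3.68 to 5.58 over all settings. Alternatives by subset, marker number, cell minimum and library totals alone, and those of all stromal cells, were chosen after seeing the data. At this depth, genes with a few UMIs per class, *Tnfsf11* and *Tnfrsf11b* foremost, limit what can be seen.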
